A study of Mus musculus with 6 samples.

Results

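The sequence-specific translational regulators described here are the mRNAs of the cytoplasmic polyadenylation element binding proteins *Cpeb1*, *Cpeb2*, *Cpeb3* and *Cpeb4*, of the germ cell RNA-binding protein *Dazl* and of the Pumilio protein *Pum2*. They were chosen by name, with no threshold on a measured value, and make up 6 of the 25899 genes of the expression table. Oocytes came from aged females (AF) that the sample labels give as 58 week old CD1 mice, while the methods of the study give the strain as ICR and the age in months. The mice were primed with pregnant mare serum gonadotropin, and fully grown oocytes were cultured for 180 min without 3-isobutyl-1-methylxanthine, the agent that had held them at prophase, until nuclear envelope breakdown (NEBD). Cycloheximide was then added at 0.1 mg/ml for 10 min, which held ribosomes on the mRNA, and lysates of 200 oocytes were separated on sucrose gradients into 10 fractions. These were pooled into a non-polysomal part (NP; free RNA and RNA on monosomes) and a polysomal part (P), giving 3 NP and 3 P libraries. All 6 libraries share the age, the priming, the culture and the cycloheximide, so no effect of age is tested; oocytes of young females were not analysed here. The number of animals behind each library is not given in the sources used here, so the spread between libraries may be partly technical.

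Fully grown oocytes make almost no new RNA, and the proteins needed for meiosis come from stored mRNAs whose translation is switched on in turn. CPEB proteins bind a U-rich element in the 3′ UTR, the cytoplasmic polyadenylation element (CPE). Phosphorylated CPEB1 recruits the machinery that lengthens the poly(A) tail at the resumption of meiosis. DAZL binds U-rich sites with a central G and promotes translation in germ cells, and it acts on part of its targets together with CPEB1. Pumilio proteins bind the element UGUANAUA and mostly repress translation or shorten the life of their targets. CPEB1 is itself degraded during maturation, and CPEB4 takes over in later meiosis in the oocytes where this has been worked out, those of the frog.

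The regulators are themselves made from mRNAs with such elements, which is why a site from each 3′ UTR is shown. The annotated transcript with the longest 3′ UTR was read for each gene from GENCODE M21 (GRCm38, the build of the authors' alignment). Each sequence below is 30 bases of the mRNA strand, written 5′ to 3′ with T for U, and the capitals mark the element. For CPEs the match closest to the end of the transcript was taken.

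*Cpeb1* CPE, chr7:81347256-81347285, minus strand: ttgacttttctTTTTAATttaacgattact

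*Cpeb1* Pumilio element, chr7:81347543-81347572, minus strand: tgagcagctgcTGTATATAgttttaaatgg

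*Cpeb2* CPE, chr5:43289554-43289583, plus strand: taatttagtttaTTTTATtgttatcttcca

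*Cpeb3* CPE, chr19:37021506-37021535, minus strand: ggaataaattaaTTTTATgatgctaattct

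*Cpeb3* Pumilio element, chr19:37022117-37022146, minus strand: cccttttgtttTGTAAATAaatgtgccccc

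*Cpeb4* CPE, chr11:31935406-31935435, plus strand: gggtaattcattTTTTATtaaagtcatttt

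*Dazl* CPE, chr17:50279752-50279781, minus strand: aagtcaaaattcTTTTATgtcaccaagtca

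*Pum2* CPE, chr12:8751625-8751654, plus strand: tagaagggatttTTTTATtcgaggtctgca

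*Pum2* Pumilio element, chr12:8750154-8750183, plus strand: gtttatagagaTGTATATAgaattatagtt

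*Pum2* Pumilio element, chr12:8750407-8750436, plus strand: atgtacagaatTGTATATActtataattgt

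None of the 6 mRNAs had a CPE (TTTTAT or TTTTAAT on the mRNA strand) in the last 100 bases of its longest 3′ UTR, the stretch where CPEs that drive polyadenylation usually lie. Of 17656 genes with an annotated 3′ UTR of at least 100 bases, 17.8% had one there. Of the known targets of CPEB1 and DAZL named below, *Plat* and *Gdf9* had 1 each there, while *Ccnb1* and *Mos* had 0. Known targets can therefore lack a match in this stretch. In the shortest annotated 3′ UTR of *Dazl*, of 198 bases, 1 CPE lay in the last 100 bases. Over the whole 3′ UTR, all 6 had CPEs, as did 60.6% of genes and, among 3′ UTRs within 20% of the length of each of the 6, between 68.7% and 94.5%. *Cpeb2* held 24 CPEs in 3778 bases and *Cpeb4* held 17 in 4102 bases, where like-length 3′ UTRs had a median of 5 each. As many as in *Cpeb4* were found in 0.649% of 1387 like-length 3′ UTRs. As many as in *Cpeb2* were found in 0.0619% of 1615, a share that counts *Cpeb2* itself. *Pum2* (2861 bases) held 8, *Cpeb3* (3569 bases) and *Dazl* (1854 bases) held 6 each, and *Cpeb1* (1315 bases) held 4. As many were found in 11.7%, 36.9%, 8.92% and 14.3% of the 3′ UTRs with about the length of *Pum2*, *Cpeb3*, *Dazl* and *Cpeb1*. Like-length 3′ UTRs, here and below, were matched on length alone and not on base composition. The GC content was 33.4% in the 3′ UTR of *Cpeb2* and 34.3% in that of *Cpeb4*. Among the genes compared between P and NP below, its median was 42.6% for 3′ UTRs with a CPE and 49.3% without. The part of base composition in the CPE counts was not tested. The shortest annotated 3′ UTRs of *Cpeb3* (184 bases) and *Pum2* (281 bases) held 0 CPEs, 0 Pumilio elements and 0 Dazl motifs.

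The Pumilio element TGTANATA had 2 matches in the 3′ UTR of *Pum2* itself, a number that 14.3% of 2149 like-length 3′ UTRs equalled or passed. *Cpeb1*, *Cpeb2* and *Cpeb3* had 1 each, and *Cpeb4* and *Dazl* had none. At least 1 was found in 25.2% of all 3′ UTRs, but in 51.0%, 50.1%, 53.8% and 43.6% of those with about the length of *Cpeb2*, *Cpeb3*, *Cpeb4* and *Pum2*. For the lengths of *Cpeb1* and *Dazl* the shares were 24.7% and 31.9%. The Dazl motif TTGTT, a short element found in 73.1% of all 3′ UTRs, occurred 9 times in *Dazl*, 4 times in *Cpeb1* and between 10 and 20 times in the others. As many were found in 10.6% and 33.5% of 3′ UTRs with about the length of *Dazl* and *Cpeb1*. For *Cpeb2*, *Cpeb3*, *Cpeb4* and *Pum2* the shares were 4.09%, 8.70%, 25.8% and 23.8%. Matches were sought on the mRNA strand, and overlapping matches were counted separately. A match is a match of letters and was not measured as a bound site. The 3′ UTRs are those of the annotation, and which ends the oocytes used was not measured.

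The libraries differed widely in depth. The FPKM values (fragments per kilobase of exon, scaled to the mapped fragments of the library) of many genes fall on steps that are whole reads, 59.9% to 66.5% of the low values checked in a library, and the depths recovered from them ran from 1237799 to 18096676 in NP and from 163822 to 1549317 in P. What 1 step counts, reads or fragments, is not settled, and steps are called reads below. The values of 4 regulators came out as whole reads within 0.02 at the GENCODE exon length. For *Cpeb2* and *Dazl* the length was itself fitted, by searching for one that makes the values whole, and was 7122 bases in place of 7816 and 2942 in place of 3820, so their reads are less certain. P replicate 1 was the shallowest library and had 6247 genes above 0, against 6908 to 13514 in the others. Each of the 10 oocyte markers was above 0 in at least 1 library of each fraction, and *Figla* was listed at 0 in P replicates 1 and 3. They had summed FPKM of 11133 to 14191 in NP and 4853 to 15165 in P. The 3 blood markers found in the table were listed at 0 in every library. Of 10 granulosa cell markers, 6 were listed at 0 in every library, and the summed FPKM was 11.2 to 131 in NP and 1.18 to 16.5 in P, mainly *Cyp19a1* and *Nr5a2*. Their part in the results was not tested. Each bulk library came from 200 oocytes, and FPKM is scaled within a library. The values are therefore levels relative to the other mRNAs of a library. They give neither the amount of an mRNA per oocyte nor the number of polysomes in a sample. Intervals below are exact Poisson intervals at 95% on the reads; they hold the error of counting alone, because copies made by amplification are counted as well.

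*Cpeb1* (ENSMUSG00000025586, chromosome 7, 81347026 to 81455465, GRCm38, minus strand), the family member that directs polyadenylation at meiotic resumption, had the highest mean of the 6 mRNAs in each fraction, although in NP replicate 1 *Dazl* was higher. In NP it was at 73.8, 220.1 and 397.6 FPKM in replicates 1 to 3, and the mean was 230.5 ± 162 (SD, n = 3). In P it was at 122.3, 107.2 and 188.9 FPKM, averaging 139.5 ± 43.5 (SD, n = 3). All 3 P values lay inside the range of the NP values, so the fractions overlapped. The lowest value rested on 383 reads in NP, and the values in P rested on 84, 513 and 1227 reads. *Cpeb1* ranked above 85.7% to 96.9% of the genes above 0 in each NP library and above 91.3% to 96.0% in each P library. Its NP values varied 5.39-fold and its P values 1.76-fold from the lowest to the highest.

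The remaining Cpeb mRNAs were low. *Cpeb3* (ENSMUSG00000039652, chromosome 19, 37021291 to 37208601, minus strand), known mainly from neurons, was at 8.17, 2.85 and 15.2 FPKM in NP. In P it was at 4.12 FPKM (5 reads, 1.34 to 9.61) and 1.18 FPKM (10 reads), and it was listed at 0 in replicate 3, where 3 reads would be worth 0.261 FPKM. P replicate 1 lay above NP replicate 2, so the fractions overlapped by these 2 libraries. The P values rested on 15 reads in all, against 1828 in NP.

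*Cpeb4* (ENSMUSG00000020300, chromosome 11, 31872211 to 31935634, plus strand), a paralog that acts after CPEB1 in frog meiosis, was uneven among libraries of the same fraction. It was at 9.26 and 2.41 FPKM in NP replicates 1 and 2 and listed at 0 in NP replicate 3, where 3 reads would be worth 0.0388 FPKM. In P it was at 10.7 FPKM in replicate 2 (78 reads, 8.48 to 13.4), at 0.101 FPKM in replicate 3, which is 1 read, and listed at 0 in replicate 1. At the depth of P replicate 1, 3 reads would be worth 2.88 FPKM. The lowest and the highest library of each fraction therefore differed by more than their counting intervals, and the fractions overlapped.

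*Cpeb2* (ENSMUSG00000039782, chromosome 5, 43233463 to 43289724, plus strand), another paralog that binds the same kind of element, was detected in 3 of 6 libraries. It was at 1.53 FPKM (197 reads) in NP replicate 2 and listed at 0 in NP replicates 1 and 3, where 3 reads would be worth 0.340 and 0.0347 FPKM. In P it was at 0.857 FPKM in replicate 1, which is 1 read (0.0217 to 4.78), listed at 0 in replicate 2, and at 0.363 FPKM (4 reads) in replicate 3. Its mean was not above 1 FPKM in either fraction, so it was not tested with limma. An exact permutation test of its log2(FPKM + 1) in 3 libraries against 3 gave p = 1 (two-sided), for a difference of 0.00034. That difference rests on libraries listed at 0 and on 1 and 4 reads in P. The permutation test therefore cannot tell whether the fractions differ. Exons of *Cpeb2* share 137 bases with the antisense gene *Gm7854*, which was listed at 0 in every library, and exons of *Cpeb3* share 116 bases with the antisense gene *A330032B11Rik*. The library kit does not mark the strand, so reads in those bases could not be assigned.

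The plot of the levels of all 6 mRNAs shows the gap between *Cpeb1* and its paralogs in every library.

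**Figure D1:**
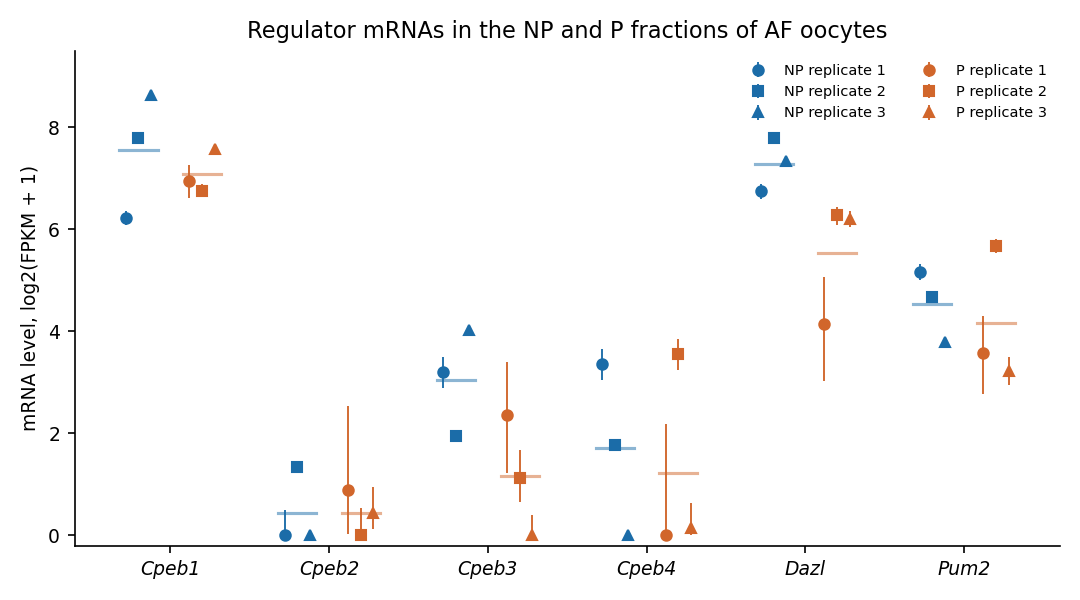
Level of each regulator mRNA as log2(FPKM + 1) in the 3 NP (blue) and 3 P (orange) libraries of AF oocytes; the symbol gives the replicate, error bars are exact 95% Poisson intervals of the recovered reads, and horizontal lines are means of each fraction. The P values of *Dazl* all lie below its NP values, while the fractions overlap for the other 5 mRNAs.

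*Cpeb1* made up most of the Cpeb mRNA of each library, per length of exon. Its share of the summed FPKM of the 4 Cpeb genes was 80.9%, 97.0% and 96.3% in NP, a mean of 91.4% ± 9.11 (SD, n = 3). In P the shares were 96.1%, 90.001% and 99.8%, a mean of 95.3% ± 4.93 (SD, n = 3). The shares of the fractions overlapped, and a share within a library does not depend on how libraries are scaled to each other. The remainder was made up of different paralogs in different libraries. *Cpeb4* took 10.1% of NP replicate 1 and 9.01% of P replicate 2, *Cpeb3* took 8.96% of NP replicate 1 and 3.69% of NP replicate 3, and *Cpeb2* took at most 0.674% of any library.

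**Figure D2:**
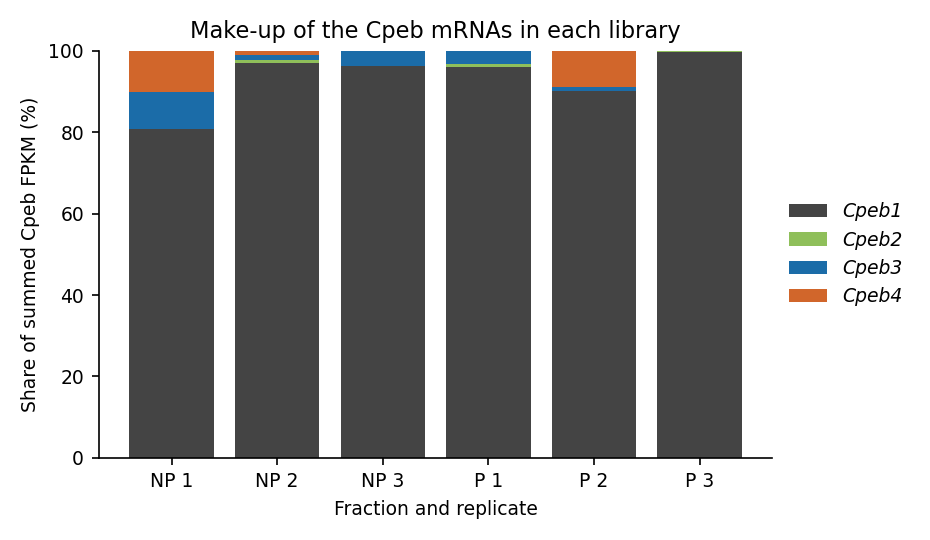
Share of each Cpeb mRNA in the summed FPKM of the 4 Cpeb genes (%, stacked bars) in each NP and P library. *Cpeb1* holds between 80.9% and 99.8% in all 6 libraries, and the largest shares of the paralogs are in NP replicate 1 and P replicate 2.

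*Dazl* (ENSMUSG00000010592, chromosome 17, 50279394 to 50293599, minus strand) was the regulator whose fractions did not overlap. It was at 106.0, 219.6 and 160.7 FPKM in NP, averaging 162.1 ± 56.8 (SD, n = 3). In P it was at 16.6, 76.2 and 72.8 FPKM, averaging 55.2 ± 33.5 (SD, n = 3). The highest P library was below the lowest NP library. The lowest P value, in replicate 1, rested on 8 reads (7.17 to 32.7 FPKM), and the others rested on 256 and 332 reads. P values lying wholly below NP values were found in 23.2% of all genes tested, and in 1 of the 5 regulators tested.

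*Pum2* (ENSMUSG00000020594, chromosome 12, 8674134 to 8752581, plus strand), a repressor of mRNAs with Pumilio elements, was at 34.9, 24.4 and 12.9 FPKM in NP, averaging 24.1 ± 11.04 (SD, n = 3). In P it was at 10.9, 49.8 and 8.36 FPKM, averaging 23.0 ± 23.2 (SD, n = 3). P replicate 2 was the highest of all 6 libraries, and P replicates 1 and 3 were the lowest, so the fractions overlapped. P replicate 1 rested on 13 reads (5.82 to 18.7 FPKM).

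FPKM is per length of exon, so the levels of the 6 mRNAs could be ordered within a library. *Cpeb1* and *Dazl* were the highest pair in every library, and *Cpeb1* was above *Dazl* in 5 of 6, including all 3 of P. The ratio of *Cpeb1* to *Dazl* was 0.696, 1.003 and 2.47 in NP and 7.37, 1.41 and 2.59 in P, so the ratios of the fractions overlapped. *Pum2* came next, below *Dazl* in all 6 libraries and above *Cpeb3* in 5 of 6 and *Cpeb4* in 6 of 6. The ratio of *Dazl* to *Pum2* was 3.03, 9.01 and 12.5 in NP and 1.52, 1.53 and 8.72 in P. In P replicate 1 the counting intervals of *Dazl* (7.17 to 32.7 FPKM) and *Pum2* (5.82 to 18.7 FPKM) overlapped. Those of *Cpeb1* and *Dazl* overlapped in NP replicate 2. The level of *Dazl* also depends on its exon length, 2942 bases by the fit and 3820 in GENCODE. *Cpeb3* and *Cpeb4* could not be ordered, each being the higher in 3 of 6 libraries. *Cpeb2* was below *Cpeb3* in 5 of 6 libraries. It was below *Cpeb4* in 3 of 6 and above it in 2, and both were listed at 0 in NP replicate 3. In P replicate 1, *Cpeb2* was above *Cpeb4* by 1 read against 0.

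The comparison of P with NP asks whether the level of each mRNA within the polysomal library differed from that within the non-polysomal library. FPKM is scaled within each library, so the amounts of an mRNA in the fractions are not compared, and the FPKM of all genes summed to 597261 to 633110 in NP and 246182 to 393876 in P. It was fitted with limma on log2(FPKM + 1) over the 10578 genes with a mean above 1 FPKM in either fraction, with Benjamini-Hochberg adjustment and a threshold of 0.1. None of the 5 regulators tested passed. Over all genes tested, 192 (1.82%) passed, 2 higher and 190 lower in P, and at an unadjusted p below 0.05 there were 1669 genes (15.8%) and none of the regulators. The count over all genes was 4, 12 and 1 without NP replicates 1, 2 and 3, 331 without P replicate 3 and 3 to 6 under other scalings of the libraries, where 2 were higher in P. No regulator passed in any of these fits. The median log2 difference of all genes was -1.03, so each regulator is also given relative to that median.

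*Dazl* was lower in P by a log2 difference of -1.75 ± 0.87 (SE; 95% interval -3.54 to 0.04; limma adjusted p = 0.330), which is -0.72 relative to the median of all genes. Without P replicate 1, the library with 8 *Dazl* reads, the difference was -1.05, or -0.02 relative to the median of all genes. Relative to the median it was -0.39 without NP replicate 3, -1.15 without P replicate 3 and -0.05 with a pseudocount of 0.1. With the libraries rescaled to each other the difference was -0.83 to -0.73, or -0.51 to -0.33 relative to the median. An exact permutation test gave p = 0.1, the smallest value that 3 libraries against 3 allow. Of all genes tested, 27.0% had a lower log2 difference than *Dazl*.

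*Cpeb3* had the lowest log2 difference of the 5, -1.89 ± 1.23 (SE; limma adjusted p = 0.442), or -0.86 relative to the median of all genes. Its interval ran from -4.45 to 0.66. The value relative to the median was -0.07 without NP replicate 3, -0.38 without P replicate 3, -1.51 without NP replicate 2 and -1.46 without P replicate 1. *Cpeb3* was not the lowest in every fit. At a pseudocount of 5 its log2 difference was -0.96 and that of *Dazl* -1.64. *Dazl* was also the lower without NP replicate 1, NP replicate 3, P replicate 2 or P replicate 3.

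*Cpeb1* had a log2 difference of -0.46 ± 0.78 (SE; limma adjusted p = 0.769), or 0.57 above the median of all genes. The difference of *Cpeb4* was -0.48 ± 1.23 (SE; limma adjusted p = 0.855), or 0.55 above that median. *Pum2* was at -0.38 ± 1.08 (SE; limma adjusted p = 0.869), or 0.65 above it. These positions move with single libraries, with the pseudocount and with the filter. With no filter the median of all genes was 0, and *Cpeb1*, *Cpeb4* and *Pum2* were -0.46, -0.48 and -0.38 relative to it. With pseudocounts of 5 and 0.1, *Cpeb1* was 0.06 and 1.27 above the median, and *Pum2* was 0.24 and 1.31 above it. *Cpeb1* was -0.17 relative to the median without NP replicate 1, 0.24 without P replicate 3, 0.91 without P replicate 2 and 1.42 without NP replicate 3. *Cpeb4* was -0.44 relative to it without P replicate 2, 0.004 without NP replicate 3 and 1.001 to 1.30 without NP replicate 1, P replicate 1 or P replicate 3. *Pum2* was 0.06 above it without P replicate 2 and 1.02 above it without P replicate 3. Their intervals ran from -2.08 to 1.16, from -3.02 to 2.06 and from -2.63 to 1.86, so differences of more than 1 on the log2 scale in either direction lie within each of them. When libraries were rescaled to each other, the median of all genes moved to between -0.50 and -0.22, and all of these differences turned positive, while those of *Dazl* and *Cpeb3* stayed negative under each of these scalings. Relative to the median of each scaling, *Cpeb1* was 0.83 to 0.97, *Cpeb4* 0.53 to 0.95 and *Pum2* 0.99 to 1.06 above it.

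**Figure D3:**
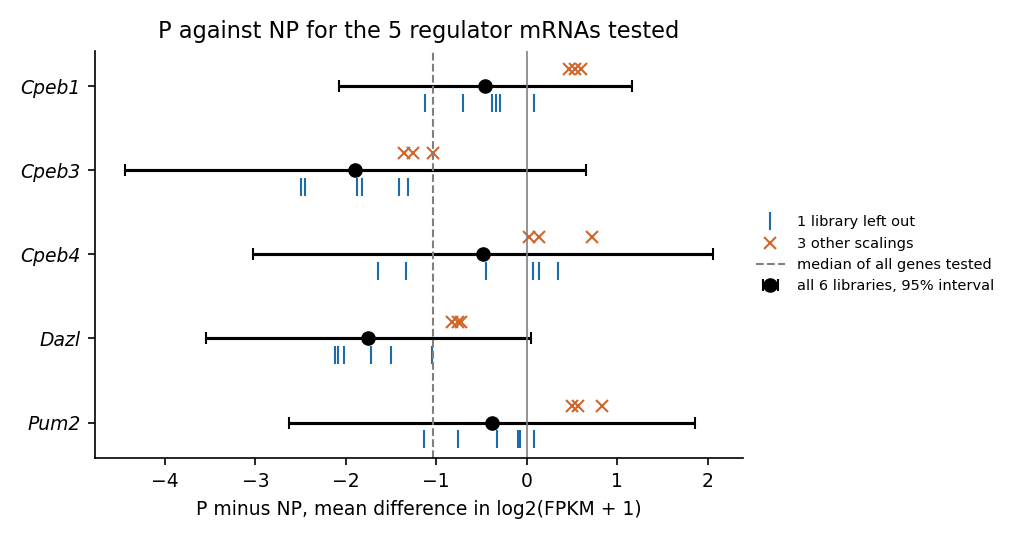
Difference between P and NP in mean log2(FPKM + 1) for the 5 regulators tested, with limma's 95% interval (black), the values with each library left out (blue) and under 3 other scalings (orange); the dashed line is the median of all genes tested, -1.03. Every interval includes 0, and the orange marks of *Cpeb1*, *Cpeb4* and *Pum2* are above 0.

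The mRNAs closest in level to each regulator were taken as the 2 genes tested with the smallest Euclidean distance in log2(FPKM + 1) over the 6 libraries. The distance selects genes of like level, and genes were not ranked by correlation. For *Cpeb4* these were *Ddx42* (distance 0.198) and *Pds5b* (0.261), which were listed at 0 in NP replicate 3 and in P replicates 1 and 3. *Ddx42* was at 8.79 and 2.59 FPKM in NP replicates 1 and 2 and at 9.95 FPKM in P replicate 2, and listed at 0 in the rest. The genes nearest to *Pum2* were *Txndc9* (0.645) and *Pxdn* (0.789), and those nearest to *Cpeb3* were *Wdr20b* (0.971) and *Maml1* (1.06). The genes nearest to *Dazl* were *Gm10094* (1.01) and *Prkab1* (1.06), and those nearest to *Cpeb1* were *Gm13125* (1.22) and *Ubb* (1.29). With 6 libraries of very unequal depth, such distances describe these libraries.

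Relatives and partners of the 6 regulators were taken from lists chosen with the biology in view. Of 15 other RNA-binding regulators of stored mRNAs, 11 were tested, and 0 passed in either direction with limma, with 3 at an unadjusted p below 0.05 (15.8% of all genes). Their median log2 difference was -1.94, and 5 of the 11 had P values wholly below NP values, against 23.2% of all genes. The highest in level were *Zar1*, *Zar1l* and *Ybx2*, which bind and store maternal mRNA. *Zar1l* was at 437.8, 249.4 and 579.3 FPKM in NP and at 122.8, 88.1 and 19.5 FPKM in P, with a limma adjusted p of 0.115. *Ybx2* was at 299.2, 333.1 and 434.9 FPKM in NP and at 71.2, 62.7 and 168.5 FPKM in P (limma adjusted p = 0.203). *Zar1* overlapped between the fractions, at 618 to 1458 FPKM in NP and 211 to 1013 FPKM in P (limma adjusted p = 0.3999).

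The machinery through which CPEB acts was measured more fully, with 16 of 16 poly(A) and cap-binding genes tested. With limma, 0 were past the threshold in either direction and 3 had an unadjusted p below 0.05, a share near the 15.8% of all genes. Their median log2 difference was -0.87, close to that of all genes, with 11 below 0 and 5 above. *Pabpc1l*, the embryonic poly(A)-binding protein, was nearly the same in libraries of one fraction, at 830.1, 883.9 and 928.2 FPKM in NP and at 219.6, 217.7 and 216.6 FPKM in P. Its log2 difference was -2.01 ± 0.59 (SE; limma adjusted p = 0.113). *Eif4e1b*, an oocyte form of the cap-binding protein, was at 148.0, 333.9 and 373.2 FPKM in NP and at 16.2, 64.5 and 136.5 FPKM in P (limma adjusted p = 0.201). *Tacc3*, the mouse relative of the CPEB partner Maskin, was at 119.2, 78.1 and 60.9 FPKM in NP and at 168.5, 83.4 and 258.3 FPKM in P, and the fractions overlapped (limma adjusted p = 0.549).

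Kinases and turnover factors that act on CPEB1 numbered 7, of which 6 were tested and 0 passed in either direction with limma, with 1 at an unadjusted p below 0.05, *Plk1*, against 15.8% of all genes. Their median log2 difference was -0.51. *Plk1*, which marks CPEB1 for degradation, was at 682.5, 756.3 and 2085 FPKM in NP and at 266.0, 225.5 and 436.0 FPKM in P (limma adjusted p = 0.166). *Aurka*, a kinase proposed to activate CPEB1, was at 165.0, 278.3 and 313.1 FPKM in NP and at 130.2, 117.7 and 478.7 FPKM in P. *Mapk3* was at 231.6, 187.0 and 376.6 FPKM in NP and at 268.1, 136.9 and 965.9 FPKM in P. Both overlapped between the fractions.

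Known targets of CPEB1 and DAZL numbered 11, of which 9 were tested and 0 passed in either direction with limma, with 1 at an unadjusted p below 0.05 (15.8% of all genes) and a median log2 difference of -0.47. That gene was *Ccnb1*, cyclin B1, named here after its values were seen, at 676.8, 1331 and 1686 FPKM in NP and at 461.8, 507.9 and 187.8 FPKM in P (limma adjusted p = 0.182). *Gdf9*, an oocyte growth factor, had the highest mean of the list, with 1591, 1580 and 2602 FPKM in NP and at 4629, 1329 and 4776 FPKM in P. Its log2 difference was 0.72 ± 0.50 (SE; limma adjusted p = 0.461). *Plat*, a classic mRNA of regulated polyadenylation in mouse oocytes, was at 2502, 2103 and 1056 FPKM in NP and at 1751, 1289 and 823.4 FPKM in P. *Mos*, the kinase that starts the MAP kinase cascade, was at 887.6, 1006 and 1072 FPKM in NP and at 1036, 461.3 and 1231 FPKM in P. Of the 3 Pumilio targets, 2 were tested and 0 passed with limma, and 0 had an unadjusted p below 0.05. *Atxn1* was at 26.6, 27.9 and 7.35 FPKM in NP and at 10.9, 5.45 and 5.23 FPKM in P, and *Cdkn1b* was at 6.45 FPKM or less in every library. *E2f3*, the other one, was at 0.403 FPKM or less and was not tested.

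The elements that these proteins bind could be set against P and NP across all mRNAs. Of the genes tested, 8606 had an annotated 3′ UTR of at least 100 bases, with a median log2 difference of -1.01. For the 1649 with a CPE in the last 100 bases the median was -0.88, against -1.05 for the 6957 without, a gap of 0.17. With each P library set against the mean of the NP libraries, the gap was 0.14, 0.28 and 0.11, values that share the same NP libraries. For the Pumilio element the medians were -0.85 with (2296 genes) and -1.08 without (6310 genes), a gap of 0.22 (0.21, 0.45 and 0.06 for P replicates 1 to 3). The Dazl motif gave -0.93 with (6519 genes) and -1.28 without (2087 genes), a gap of 0.35 (0.30, 0.50 and 0.09).

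mRNAs with an element had longer 3′ UTRs and a lower GC content. Median lengths were 2199 bases with and 911.5 without the Pumilio element, and 1579 with and 393 without the Dazl motif, and the GC content with and without the Dazl motif was 43.6% and 49.6%. The median log2 difference itself rose with length, from -1.23 for 3′ UTRs of 100 to 703 bases through -0.99 for 704 to 1827 bases to -0.88 for longer ones. Among the longest, the gap was 0.08 for the CPE and 0.09 for the Pumilio element, and for the CPE it was below 0 in P replicate 1. For a CPE anywhere in the 3′ UTR the gap was 0.33, 0.27 and 0.39 from the shortest to the longest, with 239 of the longest lacking one. From the shortest to the longest it went from 0.24 to 0.07 in P replicate 1, from 0.42 to 0.50 in P replicate 2 and from 0.16 to 0.10 in P replicate 3. For the Dazl motif the gap was 0.22, 0.31 and 0.17, with 57 of the longest lacking the motif. Among the longest, single P libraries gave gaps of 0.29, 0.39 and 0.18, all above the 0.17 of the P libraries together. Among the shortest they gave 0.19, 0.28 and 0.09, so each was larger among the longest, unlike the gap of the P libraries together. No order with length could therefore be read for a CPE anywhere or for the Dazl motif. Levels differed too. The median FPKM (mean of the 6 libraries) was 7.14 with and 9.41 without the Pumilio element, and 8.37 and 10.1 for the Dazl motif. For a CPE anywhere it was 7.76 and 10.6, but for a CPE in the last 100 bases 9.16 and 8.61. The median log2 difference of all genes was -1.73, -1.03 and -0.52 at pseudocounts of 0.1, 1 and 5. The gaps were computed at 1 alone. The parts of length, GC content, level and the elements themselves in these gaps were not tested apart.

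**Figure D4:**
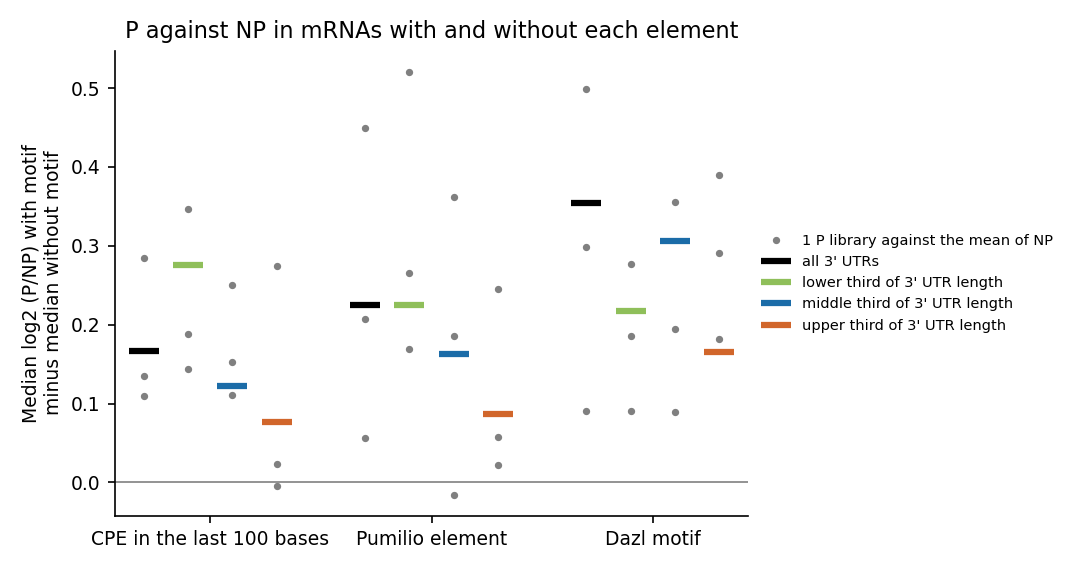
Median log2 difference (P minus NP) of mRNAs with an element minus that of mRNAs without it, for all 3′ UTRs (black) and for the shortest, middle and longest 3′ UTRs (colours); grey points set each P library against the mean of the 3 NP libraries. Over all 3′ UTRs the gaps are 0.17, 0.22 and 0.35, and among the longest they are 0.08, 0.09 and 0.17.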

How the data were processed

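RNA of NP and P fractions of AF oocytes, freed of rRNA, was reverse transcribed, amplified as whole cDNA and made into Nextera libraries. The deposited values are FPKM per gene, which the authors computed in Seqmonk after trimming (Trim Galore 0.4.1) and alignment to GRCm38 (HISAT2 2.0.5). Per the submitters' processing notes FastQC 0.11.5 was also run. For the annotation release and the strand setting, nothing was given in the sources used here. Columns with the authors' mean of each fraction were not used. Of 25965 rows, 66 repeated a symbol, and the row with the highest mean was kept.

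Members and lists were chosen with earlier results of these data known. Testing of P against NP used limma 3.58.1 (R 4.3.3) on log2(FPKM + 1). The spread was allowed to vary with the level, the test was two-sided, and libraries were not paired by replicate number. The fit was tested on simulated data with less noise than the real libraries have. Genes named are the 6 regulators, the 3 with the highest mean FPKM of each list (the marker lists are given mainly as sums), any list gene past the threshold, and the 2 nearest to each regulator tested. *Cyp19a1* and *Nr5a2* are among them, while *Ccnb1* and *Figla* were added once their values had been seen. *Gm7854* and *A330032B11Rik* are named for sharing exon bases with a regulator. Sequence shared with other genes was sought with blastn 2.17.0; at 90% identity over 75 bases or more, it was found for *Cpeb3*, with 5 genes, and at 95% for none.

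Depth was recovered from the steps of low FPKM values with GENCODE M21 exon lengths, found for 22662 rows. Alternatives were other pseudocounts (0.1, 5), filters (none, mean above 5), 3 scalings, no trend, leaving out each library in turn, a stricter threshold (0.05) and a replicate block. The 3′ UTR length groups were added after seeing the data. Plots were made with matplotlib 3.10.9 in Python 3.11.15.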

Additional observations from a re-analysis of the deposited data

How the results depend on the processing

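No regulator passed the threshold under any alternative run. The number of genes past it, 192, was 69 with a pseudocount of 0.1, 1 with no filter, 3 with median-of-ratios scaling, 4 with quantile normalization, 6 with a common FPKM sum, 15 without the trend and 65 at a threshold of 0.05. Leaving out 1 library gave 1 to 331 genes. The log2 difference of *Cpeb1* was 0.53, 0.61 and 0.47 under the 3 scalings in that order, that of *Cpeb4* 0.13, 0.72 and 0.029, and that of *Pum2* 0.56, 0.83 and 0.51. With 1 library left out it ran from -1.12 to 0.084 for *Cpeb1* (positive without NP replicate 3), from -1.64 to 0.35 for *Cpeb4* (positive without NP replicate 1, P replicate 1 or P replicate 3) and from -1.14 to 0.080 for *Pum2* (positive without P replicate 3). *Dazl* ranged from -2.12 to -0.73 over 15 alternatives (adjusted p 0.242 to 0.768) and *Cpeb3* from -3.15 to -0.96 (0.343 to 0.844). The gap for the CPE was 0.28 among the shortest 3′ UTRs and 0.38 for a CPE anywhere in the 3′ UTR. With the replicate number as a block, 668 genes passed and again no regulator. Deviations of libraries with the same number correlated at 0.063, 0.099 and 0.116 and those of other pairs at -0.089 to 0.021; each library correlated best with its own number, a hint from the data and not the design. The causes of these changes were not tested. The values of *Cpeb2*, *Cpeb3* and *Cpeb4* in P rest on 5, 15 and 79 reads, 78 of the 79 in P replicate 2.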
